A study of Mus musculus with 6 samples.

Results

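The complement components examined here were the 9 genes C1qa, C1qb, C1qc, C2, C3, C4b, Cfb, Cfp and Serping1, taken by gene name from the 54532 genes of the deposited table, with their values in all 6 libraries. RNA-seq had been performed on peritoneal macrophages of wild-type C57BL/6J mice aged 6 to 8 weeks, collected 5 days after thioglycolate, an irritant that draws monocytes into the peritoneal cavity. Control cells were untreated. In the Model group, LPS (500 ng/mL), an endotoxin of bacteria, was given for 5.5 h and followed by 2 mM ATP for 0.5 h, the pair of signals that activates the NLRP3 inflammasome. The MUS group was treated in the same way, with 50 µM muscone, the odorant ketone of musk, added 5 h after LPS and 0.5 h before ATP. Each group had 2 libraries, and nothing in the sources says that they came from separate animals, so the p-values measure the spread between these libraries, which may be technical.

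Complement is a cascade of blood and tissue proteins that tags microbes and dying cells for uptake and can pierce membranes. The classical pathway starts with C1q, built from the A, B and C chains that C1qa, C1qb and C1qc encode; its proteases cut C4 and C2, whose fragments form the enzyme that cuts C3, and C1 inhibitor, the product of Serping1, switches those proteases off. The alternative pathway uses factor B (Cfb) to build a second C3-cutting enzyme, which properdin (Cfp) holds together. The liver makes most circulating complement, but macrophages are a main source of C1q and also release C3, C2, factor B and properdin in tissue. LPS and interferon are known to raise C3 and factor B in many cell types.

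In these macrophages the C1q chains and properdin were abundant, C3 and C4b intermediate, and C2, Cfb and Serping1 close to the limit of detection. C1qc, the gene of one C1q chain, fell by 1.85 on the log2 scale between Control and MUS, the only change that passed the test on the deposited FPKM, and a call that was lost without Control replicate 1 or either MUS library. The C1qc call was also lost without the filter on low values. C1qa, C1qb and Cfp were also lowest in MUS on average and C3 highest, but the test did not call them. A fit to fragment counts (voom), added after the values had been seen, called C2 higher in Model and MUS than in Control on the deposited scale. There 11.8% and 16.2% of genes were called. On the scale of fragments on genes it called C2 in Model vs. Control only. Between Model and MUS, 0 of the 6 complement genes abundant enough to be tested passed, as did 0% of all genes tested, while 20.2% of all genes passed between Control and MUS. After rescaling to fragments on genes, 4 of the 6 passed between Control and MUS, where 27.5% of all genes did. The median log2 fold change of all genes tested was -0.39 on that scale, beside 0.04 on the deposited one.

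The 3 C1q chain genes lie side by side on the minus strand of chromosome 4. In the deposited coordinates, which are those of the mouse build GRCm38, C1qb (ENSMUSG00000036905) spans chr4:136880129-136886187, C1qc (ENSMUSG00000036896) chr4:136889804-136893065 and C1qa (ENSMUSG00000036887) chr4:136895917-136898803, each with 3 exons in GENCODE M21. C4b, Cfb and C2 sit together on chromosome 17, again on the minus strand, with C4b (ENSMUSG00000073418, 40 exons) at chr17:34728380-34743882, Cfb (ENSMUSG00000090231, 17 exons) at chr17:34856374-34862518 and C2 (ENSMUSG00000024371, 23 exons) at chr17:34862604-34898265. C3 (ENSMUSG00000024164, 42 exons) lies elsewhere on that chromosome, at chr17:57203970-57228136. Cfp (ENSMUSG00000001128, 9 exons) is at chrX:20925454-20931555 and Serping1 (ENSMUSG00000023224, 8 exons) at chr2:84765387-84775444, both also on the minus strand.

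RefSeq promoter sequences (GRCm38.p6) were at hand for 4 of the 9 genes, C1qb, C1qc, C3 and Cfp. The sequences upstream of C1qb and C1qc, neighbours whose means were lowest in MUS, and of C3, whose mean was highest there, are shown 5′ to 3′ on the minus strand. Capitals mark a match to GAGGAA, the core bound by the myeloid factor PU.1, on either strand (C1qb and C1qc), or to TTGCNNAA, the C/EBP motif (C3). The promoter of Cfp, whose mean was also lowest in MUS, held 0 matches to either and is not printed. The windows are chr4:136886201-136886450, chr4:136893066-136893164 and chr17:57228137-57228386. The C1qc window holds the 99 bases of the RefSeq promoter that lie outside the gene as the table places it.
C1qb: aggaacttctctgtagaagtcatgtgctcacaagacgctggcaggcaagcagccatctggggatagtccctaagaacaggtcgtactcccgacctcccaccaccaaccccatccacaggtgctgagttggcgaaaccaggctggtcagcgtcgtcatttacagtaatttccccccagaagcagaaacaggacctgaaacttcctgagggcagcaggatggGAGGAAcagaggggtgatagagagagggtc
C1qc: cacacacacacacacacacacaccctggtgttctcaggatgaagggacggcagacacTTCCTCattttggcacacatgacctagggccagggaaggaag
C3: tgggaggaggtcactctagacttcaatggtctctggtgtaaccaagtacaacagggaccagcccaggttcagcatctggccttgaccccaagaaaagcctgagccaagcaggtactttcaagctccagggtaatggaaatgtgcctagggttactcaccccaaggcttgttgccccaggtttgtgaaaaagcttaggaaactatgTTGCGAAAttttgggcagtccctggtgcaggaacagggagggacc

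Counted from the RefSeq start, the GAGGAA match of C1qb lay at -30 to -25, the reverse-strand match of C1qc (TTCCTC) at -193 to -188, and the TTGCGAAA match of C3 at -45 to -38. Over the 250 bases before the start of 32851 RefSeq promoters, 23.3% held GAGGAA and 9.56% held TTGCNNAA on either strand. A loose kappaB pattern matched in all 4 of these promoters and in 45.8% of all. These motifs were chosen after the values had been seen. A match is a string of letters, and binding was not measured.

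Between 15526321 and 17135442 fragments per library lay on genes. They were recovered from the table, where FPKM multiplied by gene length fell on whole steps (tolerance 0.1 of a step). The second Control library and the first Model library stood apart. Control replicate 2 held more RNA of activation genes than Control replicate 1, with 34.2 against 0.550 FPKM of Il1b, the interleukin-1β gene, and 183 against 8.62 of Tnf. Model replicate 1 held 24906 genes with at least 1 fragment, against 17406 to 19200 in the other libraries, and its genes shorter than 1500 bases deviated from their mean by a median of 0.24 on the log2 scale. That median was -0.16 and -0.17 in Control replicates 1 and 2, and between -0.04 and 0.05 in Model replicate 2 and the MUS libraries. The per-million scale behind the Control FPKM was 1.34 and 1.45 times the fragments on genes, and between 0.909 and 0.998 times in the other 4 libraries. Rescaling to those fragments took the median log2 fold change of all genes tested to -0.40 in Model vs. Control. The calls of the complement components against Control are therefore given on both scales where they differ. Scaling each library instead by its median ratio to the geometric mean of each gene used factors of 0.976 to 1.05. The median in that comparison was then -0.01. Macrophage markers passed the FPKM filter in 8 of 8 cases, with summed FPKM of 9556 to 14260. Neutrophil markers summed to 52.9 and 53.4 FPKM for Control, 133 and 160 for Model and 119.9 and 121 for MUS. S100a9, Ly6g and Retnlg were listed at 0 in every library. Most of the sum came from S100a8, with means of 22.1, 83.3 and 57.1 FPKM, and Csf3r, with 25.8, 59.2 and 58.4. Mmp8 was highest in Control, at 5.05, 3.14 and 4.53 FPKM, so the list did not move as 1. Fibroblast markers summed to 19.0 and 19.4, 22.5 and 36.4, and 23.4 and 26.3 FPKM in those groups, while mesothelial markers stayed at 1.37 to 2.66. Among the fibroblast markers, Dcn had means of 2.60, 7.07 and 7.13 FPKM, and Col1a1 8.03, 9.68 and 5.62. Dcn passed the test against Control in Model and in MUS on the deposited FPKM, and the other fibroblast markers tested did not. The part of these cells in the complement values was not tested. In such bulk samples, fewer cells of a type and less RNA per cell cannot be told apart.

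C1qb, the B chain, was the most abundant of the 9 genes and ranked 115 of 54532 by mean FPKM (fragments scaled to gene length and to library size, a level per length). It reached 460.3 and 379 FPKM in the Control libraries, 453 and 295 with LPS and ATP (Model), and 211 and 247 once muscone was added (MUS). The MUS libraries lay below the other 4, while Control and Model overlapped. The means were 419.5 ± 57.6, 374 ± 112 and 229 ± 25.7 FPKM (SD, n = 2).

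C1qc, the C chain, ranked 538. Control libraries held 174 and 110.2 FPKM, Model libraries 94.3 and 54.1, and MUS libraries 33.6 and 42.2. The 3 groups did not overlap, with Control highest and MUS lowest. The means were 142 ± 45.0, 74.2 ± 28.4 and 37.9 ± 6.10 FPKM (SD, n = 2).

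C1qa, the A chain, ranked 692. Control libraries held 120.2 and 62.7 FPKM, Model libraries 74.3 and 44.1, and MUS libraries 36.9 and 47.4. Neighbouring groups overlapped, and both MUS libraries lay below both Control libraries. The means were 91.5 ± 40.7, 59.2 ± 21.4 and 42.2 ± 7.44 FPKM (SD, n = 2). In all 3 chains the higher of the 2 values fell in replicate 1 of Control and Model and in replicate 2 of MUS.

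**Figure D1:**
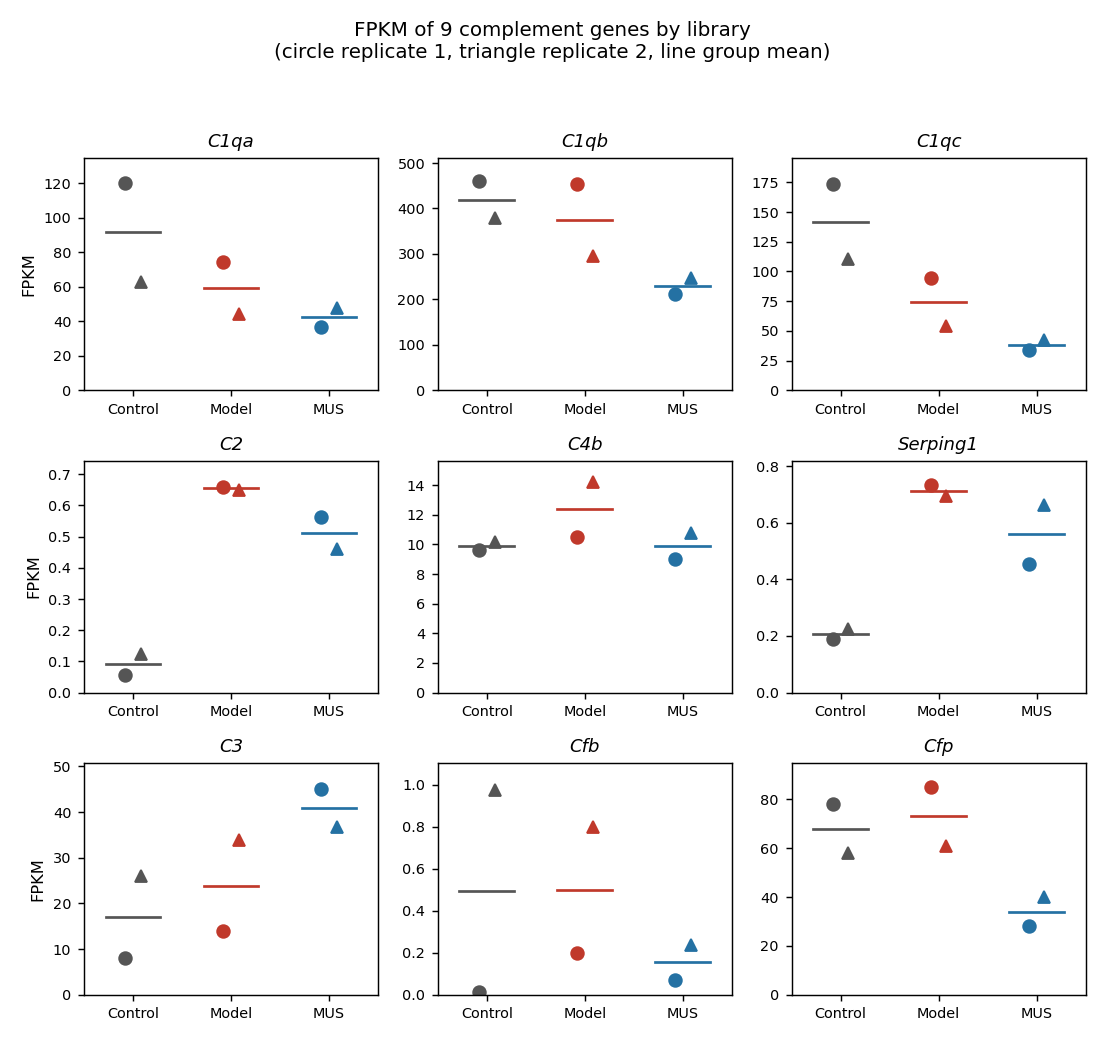
FPKM of the 9 complement genes (vertical axes, linear, each with its own range from 0) in Control, Model and MUS; circles are replicate 1, triangles replicate 2 and lines group means of n = 2. C1qa, C1qb, C1qc and Cfp are lowest in the MUS libraries on average, C3 is highest there, and C2 and Serping1 are below 1 FPKM everywhere and lowest in Control.

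The 3 chains did not keep one proportion. The ratio of C1qc to C1qb within a library, which no scaling of the library can change, was 0.378 and 0.291 for Control, 0.208 and 0.183 for Model and 0.159 and 0.171 for MUS. Every Control value lay above every Model value, and every Model value above every MUS value. The ratio of C1qa to C1qc was 0.692 and 0.569 for Control, 0.788 and 0.816 for Model and 1.10 and 1.12 for MUS, in the opposite order and again without overlap. Both ratios contain C1qc, so the second is not separate from the first. How many other pairs of genes are ordered in this way was not counted. C1qa over C1qb was 0.261 and 0.166, 0.164 and 0.149, and 0.175 and 0.192, and there MUS lay inside the range of Control. With 2 libraries against 2, a two-sided exact permutation test cannot give a p under 0.333, so the ratios are reported as values. C1qa and C1qb, at 1040 and 1088 bases, are shorter than C1qc, at 1931. Short genes were higher in Model replicate 1 and lower in both Control libraries. After a gene-length correction, C1qc minus C1qb on the log2 scale was -1.46 and -1.85 for Control, -2.21 and -2.45 for Model and -2.55 and -2.50 for MUS, again without overlap.

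**Figure D2:**
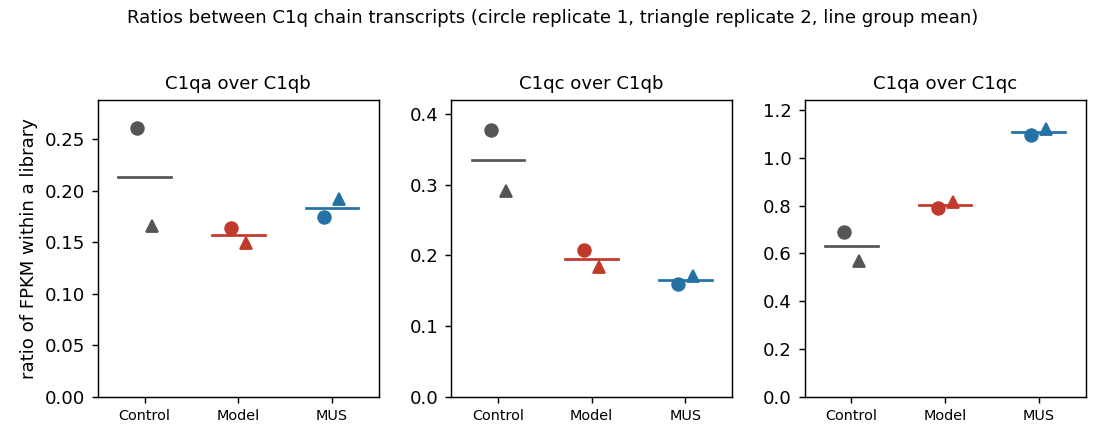
Ratios of FPKM between the C1q chain genes within each library (vertical axes, linear from 0) for Control, Model and MUS; circles are replicate 1, triangles replicate 2 and lines group means of n = 2. C1qc over C1qb falls from 0.334 to 0.196 to 0.165 on average, and C1qa over C1qc rises from 0.630 to 0.802 to 1.11, without overlap between groups. Both of these ratios contain C1qc. For C1qa over C1qb, MUS lies inside the range of Control.

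C4b, which encodes the C4 protein that the classical pathway's proteases cut first, was expressed at 9.62 and 10.1 FPKM in the Control libraries, at 10.5 and 14.2 in those of Model and at 8.98 and 10.8 in those of MUS. The Model libraries lay just above the Control libraries, and MUS overlapped both groups. In GENCODE M21, 34.6% of the 50-base stretches in its transcripts also occur in C4a, its paralogue, so fragments could have been split between them, although C4a itself did not exceed 0.129 FPKM in any library.

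C2, the protease that joins C4 in the C3-cutting enzyme, had 5 and 11 fragments in the Control libraries, 36 and 39 in the Model libraries and 33 and 29 in the MUS libraries. These correspond to 0.0565 and 0.124, 0.659 and 0.650, and 0.564 and 0.461 FPKM. Both stimulated groups lay above Control without overlap, and Model lay above MUS. C2 shares 42.8% of its exon bases with Gm20547, a gene on the same strand that is listed at 0 in every library, and a further 161 bases with Zbtb12 on the opposite strand, so its level is uncertain.

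Serping1, the C1 inhibitor, had 10 and 12 fragments in the Control libraries, 24 and 25 in the Model libraries and 16 and 25 in the MUS libraries, or 0.188 and 0.226, 0.731 and 0.694, and 0.455 and 0.662 FPKM. Control was lowest, and MUS lay below Model on this scale. No 50-base stretch of Serping1 was shared with another gene. A count of 0 allows up to 3 fragments, or 0.131 to 0.213 FPKM for a gene of 1 kb, so counting error weighs on these low values.

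C3, the protein on which all pathways converge, ranked 1508. Control libraries held 8.05 and 26.1 FPKM, Model libraries 13.9 and 33.9, and MUS libraries 45.2 and 36.8, resting on 947 to 3511 fragments. Both MUS libraries lay above the other 4, and Control and Model overlapped. The means were 17.1 ± 12.7, 23.9 ± 14.2 and 41.0 ± 5.94 FPKM (SD, n = 2). The Control library with the higher C3 was replicate 2, which also held the most Il1b and Tnf of the 2. C3 over C4b was 0.837 and 2.57 for Control, 1.32 and 2.38 for Model and 5.03 and 3.41 for MUS.

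Cfb, factor B of the alternative pathway, had 1 and 63 fragments in the Control libraries, 8 and 35 in the Model libraries and 3 and 11 in the MUS libraries. Replicate 2 was the higher in each group, and the groups overlapped. The 63 fragments of Control replicate 2, 0.975 FPKM, were the largest value of any library. Cfb shares 79.5% of its exon bases with Gm20547, so its level is uncertain.

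Cfp, or properdin, which stabilises the alternative C3-cutting enzyme, was expressed at 78.1 and 57.9 FPKM in the Control libraries, at 85.1 and 60.9 in those of Model and at 28.1 and 40.0 in those of MUS. Control and Model overlapped, and both MUS libraries lay below the other 4. The means were 68.0 ± 14.3, 73.0 ± 17.1 and 34.0 ± 8.40 FPKM (SD, n = 2).

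Model vs. Control asks what LPS and ATP did to untreated macrophages. Fold changes were estimated with limma on log2(FPKM + 1) for the 9794 genes whose mean FPKM reached 1. These included 6 of the 9 complement components, all but C2, Cfb and Serping1. A DEG was a gene with a p of at most 0.05 after Benjamini-Hochberg adjustment over all genes tested and an absolute log2 fold change over 1. The stimulus was plain in Il1b, which rose by 9.67 with an adjusted p of 0.00488, and in Il6, Tnf and Nfkbia, which also passed. Of the 6 complement genes tested, 0 were DEGs, where 15.1% of all genes tested were. C1qc had the largest estimate, -0.94 with a standard error of 0.39 (95% interval -1.87 to -0.01) and an adjusted p of 0.144. C1qa was estimated at -0.59 (adjusted p = 0.359), C1qb at -0.19 (0.744), C3 at 0.54 (0.548), C4b at 0.28 (0.446) and Cfp at 0.10 (0.859). Both libraries of Model lay above those of Control for 1 gene (C4b) and below them for 1 (C1qc), against 32.6% and 28.5% of all genes tested. Within replicate numbers, which the labels give as batches, C1qc differed by -0.88 and -1.01. The median of the 6 estimates was -0.05, beside 0.04 for all genes.

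On the scale of fragments on genes, C1qc was a DEG in Model vs. Control, at -1.49 with an adjusted p of 0.0315, when 22.5% of all genes were called. C4b and Cfp then changed sign, to -0.22 and -0.45, and the interval of Cfp, as of C3, spanned 0 on both scales. The C3 estimate depended on single libraries, with -0.25 without Control replicate 1, 1.33 without Control replicate 2 and -0.07 without Model replicate 2; none of these passed.

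The low genes were examined with voom on the recovered fragments of the 17900 genes with at least 10 fragments over the 6 libraries, an analysis added after the values had been seen. C2 rose by 2.32 (standard error 0.71) in Model vs. Control with an adjusted p of 0.0399, where 19% of genes were called, and by 2.88 with an adjusted p of 0.0207 on the deposited scale, where 11.8% were. On log2(FPKM + 1) without the filter, which compresses low values, its estimate was 0.60 with an adjusted p of 0.200. Serping1 was estimated at 1.20 (adjusted p = 0.227) by voom and Cfb at 0.83 (0.696), and neither passed on either scale.

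MUS vs. Model asks what muscone added to the stimulated cells. No complement gene was a DEG, and neither was any other gene tested (0%) in this fit, while 825 genes (8.42%) had an unadjusted p under 0.05; voom also called 0, and blocking on the replicate number called 4 (0.0408%), none of them a complement gene. Cfp had the largest estimate, -1.08 with a standard error of 0.34 (95% interval -1.88 to -0.28), an unadjusted p of 0.0151 and an adjusted p of 0.463. C1qc was estimated at -0.91 (adjusted p = 0.609), C1qb at -0.68 (0.697), C1qa at -0.44 (0.835), C4b at -0.29 (0.814) and C3 at 0.87 (0.749). These intervals were wide: that of C1qc ran from -1.84 to 0.03 and that of C3 from -0.52 to 2.26. C1qb, C1qc and Cfp, 3 of 6, had lower values in each MUS library than in either Model library, against 21% of all genes tested, and C3 had higher values in each, against 21.2%. The median of the 6 estimates was -0.56, beside 0.01 for all genes.

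Within the replicate numbers, Cfp differed between MUS and Model by -1.56 in replicate 1 and -0.60 in replicate 2, C1qc by -1.46 and -0.35, and C1qb by -1.10 and -0.26. C1qa differed by -0.99 and 0.10, in opposite directions. C3 differed by 1.63 and 0.11. In each of these genes the larger difference came from replicate 1, and Model replicate 1 is the library with the surplus of detected genes. Without it, the estimates were -0.84 for Cfp, -0.51 for C1qc, -0.37 for C1qb, -0.08 for C1qa and 0.26 for C3. Without Model replicate 2 instead, they were larger, at -1.32, -1.30, -0.99, -0.81 and 1.49 in that order of genes, and did not pass either.

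**Figure D3:**
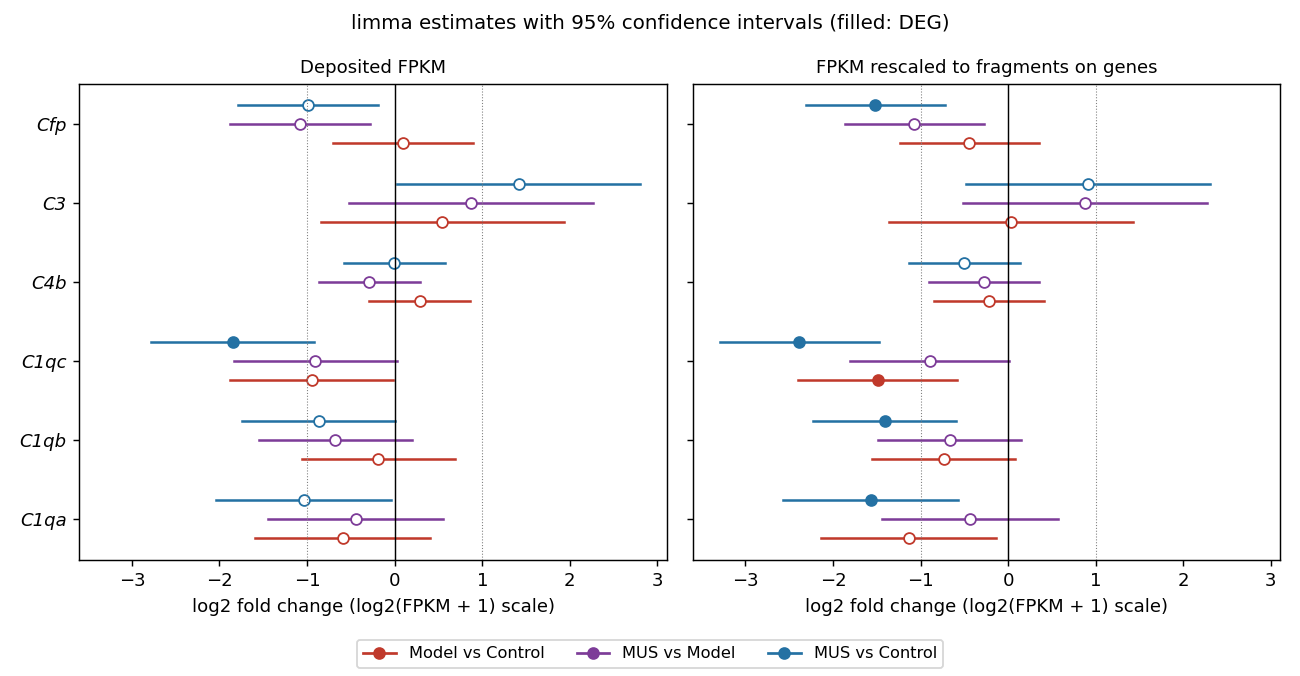
log2 fold changes (horizontal axes, log2(FPKM + 1) scale) of the 6 complement genes tested, with 95% confidence intervals from limma, for Model vs. Control, MUS vs. Model and MUS vs. Control; filled circles are DEGs. On the deposited FPKM (left) only C1qc in MUS vs. Control is filled, and after rescaling to fragments on genes (right) C1qa, C1qb, C1qc and Cfp are filled in MUS vs. Control and C1qc in Model vs. Control.

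MUS vs. Control compares cells given all 3 agents with untreated cells. It shares the Control libraries with the first comparison and the MUS libraries with the second, so the 3 sets of values are not independent. C1qc was lower in MUS, with an estimate of -1.85 with a standard error of 0.39 (95% interval -2.78 to -0.92) and an adjusted p of 0.0175. It was the 1 DEG among 6 complement genes tested, where 20.2% of all genes were DEGs and 8.91% were DEGs with lower values. C1qa was estimated at -1.04 (adjusted p = 0.115), C1qb at -0.87 (0.128), Cfp at -0.98 (0.0741), C3 at 1.42 (0.121) and C4b at -0.00 (0.994). Both MUS libraries lay below both Control libraries for C1qa, C1qb, C1qc and Cfp, 4 of 6, against 33.8% of all genes tested, and above them for C3, against 39.6%. The median of the 6 estimates was -0.93, beside 0.04 for all genes.

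The C1qc call was not stable to the loss of a library. Its adjusted p was 0.0666 without Control replicate 1, 0.163 without MUS replicate 1 and 0.0858 without MUS replicate 2, with estimates of -1.52, -1.69 and -2.01. Without the filter on low values, which brings more genes into the fit and the adjustment, it was 0.0930. The unadjusted limma p of C1qc was 0.00437 there, beside 0.00219 with the filter. Without Control replicate 2, the library with the raised activation genes, 3 of 6 complement genes were called, where 24.5% of all genes were: C1qc at -2.18, C1qa at -1.5 (adjusted p = 0.0396) and C3 at 2.21 (0.0260). Within replicate numbers, C1qc differed between MUS and Control by -2.34 and -1.36, Cfp by -1.44 and -0.52, and C3 by 2.35 and 0.48.

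After rescaling to fragments on genes, 4 of 6 complement genes were lower in MUS than in Control, against 27.5% of all genes called in either direction. They were C1qc at -2.38 (adjusted p = 0.00658), C1qa at -1.57 (0.0291), Cfp at -1.52 (0.0155) and C1qb at -1.41 (0.0214). C3 then stood at 0.91 with an adjusted p of 0.260, its interval spanning 0. The median of all genes was -0.39 on that scale. C2 was estimated by voom at 1.97 with an adjusted p of 0.0677 on that scale, where 22.3% of genes were called, and at 2.52 with 0.0329 on the deposited scale, where 16.2% of genes were called.

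The rest of the complement system was read from lists of 45 further genes, of which 15 passed the FPKM filter. In Model vs. Control 3 of the 15 were DEGs, 1 higher and 2 lower, in MUS vs. Model 0, and in MUS vs. Control the same 3, beside 15.1%, 0% and 20.2% of all genes tested. C1ra, which encodes the protease C1r that C1q carries, rose from 0.961 ± 0.0929 FPKM in Control to 3.70 ± 0.0281 in Model (log2 fold change 1.26, adjusted p = 0.00779) and stood at 4.90 ± 0.189 in MUS (SD, n = 2). Its partner C1s1 was below the filter, with 0.461 and 0.503 FPKM for Control, 0.611 and 0.784 for Model and 1.5 and 2.01 for MUS. C1qc and C1ra, subunits of one complex, were thus both DEGs in MUS vs. Control, in opposite directions, at -1.85 and 1.59. Rescaled to fragments on genes, C1ra was estimated at 0.96 in Model vs. Control, under the fold threshold, and at 1.29 in MUS vs. Control, where it passed.

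Both genes that fell encode receptors reported to bind C1q. Cd93, a membrane lectin-like protein, went from 47.1 ± 24.2 FPKM in Control to 9.73 ± 2.21 in Model and 13.4 ± 1.52 in MUS (SD, n = 2), a change of -2.08 in Model vs. Control with an adjusted p of 0.0142. Lair1, an inhibitory receptor for collagen-like proteins, went from 13.8 ± 2.42 to 2.10 ± 0.168 and 2.58 ± 0.0252 FPKM, a change of -2.24 with an adjusted p of 0.00200. Cd93 did not pass in Model vs. Control without Model replicate 1 (adjusted p = 0.0833). In MUS vs. Control it did not pass without Control replicate 1 (0.0739), MUS replicate 1 (0.137) or MUS replicate 2 (0.133), and C1ra did not without MUS replicate 1 (0.0545). Without the filter on low values, neither Cd93 (0.0983) nor C1ra (0.0501) passed in Model vs. Control, and Cd93 did not in MUS vs. Control (0.118). The other 12 genes tested were not DEGs on the deposited scale. Their calls on the scale of fragments on genes are not given here, and some other settings called more of the 15 against Control. They included the lectin Fcna, the soluble regulator Clu, the C1q-binding protein C1qbp and the membrane regulator Cr1l. Also among them were the anaphylatoxin receptors C3ar1 and C5ar1, the complement receptor subunits Itgam, Itgax and Itgb2, the C3b receptor Vsig4, and Calr, which also binds C1q. Cr1l, which limits C3 cleavage on the cell surface, had 7.12 and 9.77 FPKM for Control, 15.0 and 15.3 for Model and 17.4 and 15.9 for MUS. Its adjusted p of 0.0355 in MUS vs. Control came with an estimate of 0.92, under the fold threshold. The median of the 15 was -0.47 in Model vs. Control, 0.21 in MUS vs. Model and -0.15 in MUS vs. Control.

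The other 30 genes stayed below a mean of 1 FPKM. They included all 9 of the list with C4a, the factor D gene Cfd and the terminal components, summing to 0.236 to 1.05 FPKM in a library, and the lectin pathway genes Mbl1, Mbl2 and Masp2, which were listed at 0 in every library.

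**Figure D4:**
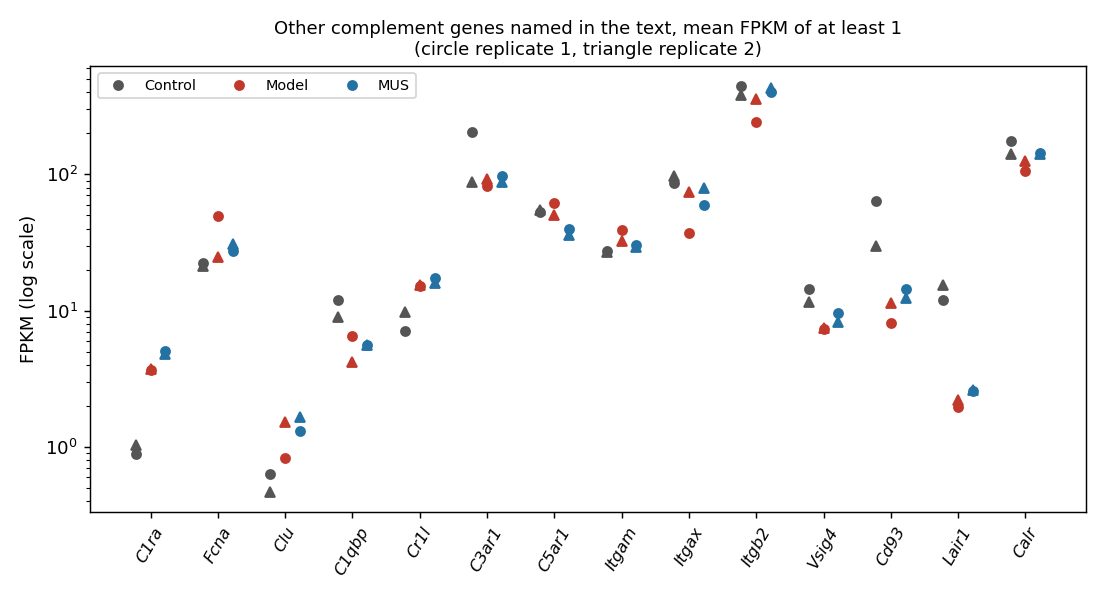
FPKM (vertical axis, log scale) of the other complement genes named in the text that passed the FPKM filter, by library; circles are replicate 1 and triangles replicate 2, colours the groups. C1ra is higher in Model and MUS than in Control, and Cd93 and Lair1 are lower. These 3 are the DEGs on the deposited FPKM.

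Genes with profiles closest to C1qa and C3 were sought among the genes tested, by the root mean square distance between centred log2(FPKM + 1) values over the 6 libraries. For C1qa they were S100a1 (0.0717), Gstp-ps (0.0774), Pfdn1 (0.0910), Atf4 (0.109) and H2-DMa (0.128). C1qb stood at rank 167 in that order, C1qc at 656 and Cfp at 756. For C3 they were Ddhd1 (0.189), St3gal1 (0.216), Pstpip2 (0.227), Gm16161 (0.241) and Rbpj-ps3 (0.252). C4b stood at rank 3504 for C3, and C1qa, C1qb, C1qc and Cfp at ranks 8477 to 9493 of 9794, near the far end. The libraries share scale and depth across genes, so these distances are descriptions.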

How the data were processed

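The complement genes, motifs and gene lists were chosen with earlier results of these data known. The authors deposited 1 table of FPKM, with 6 library columns, all used (0 other columns). The sources differ on how it was made: the paper's methods name RSEM, while the submitters' processing notes name HISAT2, featureCounts 1.5.0-p3 and GRCm39 without roles. The coordinates are those of GRCm38, as 98.3% of 54409 shared identifiers had the same start and end in GENCODE M21. The FPKM per-million scale is not given in the sources used here. The kit is not stated to mark strand.

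limma 3.58.1 in R 4.3.3 (lmFit, contrasts.fit, eBayes with trend, two-sided) was fitted to log2(FPKM + 1) of genes reaching a mean FPKM of 1, all 6 libraries in 1 model of 3 groups, with 3 residual and 4.04 prior degrees of freedom. This understates changes of low genes. The study's DESeq2 was not run, as the values are FPKM; voom on the recovered whole fragments was an alternative, with 100% of values whole. Recovered fragments cover counting error only. The fit was tested on simulated data. Python 3.11.15, NumPy 2.4.6, pandas 2.3.3 and Matplotlib 3.10.9 prepared tables and figures.

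The labels give the replicate number as the batch, which pairs libraries; deviations of same-numbered libraries correlated across genes at 0.119 (Control and Model), 0.136 (Model and MUS) and -0.0928 (Control and MUS), and the number was a block in an alternative. Every one of the 9 genes was to be named, with other complement genes passing the filter, the 4 stimulus genes, overlapping or neighbouring genes and the 5 closest profiles to C1qa and C3. Mast cell and eosinophil, B cell, T cell, resident and monocyte-derived macrophage markers summed to 1.67 to 4.64, 0.579 to 1.62, 0.133 to 0.573, 12.2 to 16.5 and 185 to 325 FPKM. The values of 1 further complement gene are not reported here, although it is included in the counts and medians of that list. Other alternatives changed the pseudocount, filter, trend, scaling, gene-length correction, groups in the fit and libraries.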

Additional observations from a re-analysis of the deposited data

How the results depend on the processing

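Of the 18 fold changes of complement genes, 13 kept their direction under all 21 alternatives, and the count of complement DEGs in MUS vs. Model stayed at 0 under each. In Model vs. Control that count, 0 on the deposited values, was 2 with quantile normalization (14.5% of all genes called), 1 with fragment-total scaling (22.5%, and 1 with the replicate block as well, 23.9%), 1 with voom (27.9%), 2 with voom on genes with at least 10 fragments (19%) and 1 with the same on the deposited scale (11.8%), and 0 to 0 with 1 library left out. In MUS vs. Control it was 1, and 0 without the filter (1.51% of all genes called), 4 with quantile normalization (20.3%), with fragment-total scaling (27.5%, and 28.9% with the replicate block as well), with voom (32.1%) and with voom on genes with at least 10 fragments (22.3%), 2 with the latter on the deposited scale (16.2%), and 0 to 3 with 1 library left out. Over all genes, the 1475 DEGs of Model vs. Control became 260 without the filter, 2734 with voom, 797 with 2 groups in the fit, 3405 with voom on genes with at least 10 fragments, 2345 with the replicate block and fragment-total scaling, and 692 to 2077 with 1 library left out, lowest without Model replicate 1. The 1980 of MUS vs. Control became 456, 3144 and 3984 under no filter, voom and voom with at least 10 fragments, and 184 to 2398 with 1 library left out, lowest without MUS replicate 1. The 0 of MUS vs. Model became 1 with a pseudocount of 0.1, 4 with the replicate block, 7 with 2 groups in the fit, 1 with the gene-length correction and 0 to 31 with 1 library left out, highest without Model replicate 2. The block alone gave 1582 and 2125 DEGs in the comparisons of Model and MUS with Control, and changed no call of the 6 complement components tested. In Model vs. Control, Cfp turned to -0.65 with quantile normalization and -0.45 with fragment-total scaling, that scaling with the replicate block, and voom with either filter, and ran from -0.14 to 0.33 with 1 library left out; C4b turned to -0.22 with fragment-total scaling with or without the block and -0.24 with voom under either filter. With 1 library left out, C1qb ran from -0.50 to 0.12 and C3 from -0.25 to 1.33 in Model vs. Control, and C4b from -0.12 to 0.12 in MUS vs. Control. With 1 library left out, the lone library of its group is assumed to vary like the others. The other complement genes called numbered 1 to 8 in Model vs. Control, 1 to 6 in MUS vs. Control and 0 in MUS vs. Model. The causes were not tested. C2 had at most 39 fragments and Serping1 at most 25 in any library. With 2 libraries a group, moderate changes of these low genes could be missed.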
